A study of Mus musculus with 6 samples.

Results

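Muscle takes up and releases amino acids through carriers of several solute carrier families, and 9 of these carriers were examined in young and aged mouse muscle: Slc3a2, Slc7a5, Slc7a8, Slc43a1, Slc1a5, Slc38a2, Slc38a4, Slc7a2 and Slc36a1. They were chosen by name as carriers used by muscle, with earlier results of these data known. All 9 were found by the RefSeq accession of their probes, with 12 of the 55681 probes on the array. Probes were not searched by gene name. All 9 were among the 20900 genes tested, of which 13843 carried a symbol. The tissue was the gastrocnemius, a mixed and mostly fast-twitch calf muscle, of male C57BL/6J mice with free access to food. RNA of 3 young mice (13 weeks of age) and 3 aged mice (26 months of age) was labelled with Cy3 and hybridized to 1 single-colour Agilent array per mouse. None of the mice was described as carrying a transgene or receiving a treatment, and age was the factor that defined the groups. The 3 young arrays and that of aged mouse 1 lay in the first row of the slide, and those of aged mice 2 and 3 in the second. Values are given as log2 signal relative to the 75th percentile of the same array, so that 0 stands for a signal equal to that percentile. Probes differ in how well they hybridize, and levels of different genes are therefore not ranked against each other.

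Amino acids cross the muscle membrane by several routes. Slc3a2 encodes 4F2hc (CD98), a heavy chain that brings light chains such as LAT1 (Slc7a5) and LAT2 (Slc7a8) to the cell surface, where they exchange one large neutral amino acid for another. LAT3 (Slc43a1) carries branched-chain amino acids and phenylalanine without a heavy chain. SNAT2 (Slc38a2) and SNAT4 (Slc38a4) are sodium-coupled system A carriers that concentrate small neutral amino acids, ASCT2 (Slc1a5) exchanges glutamine and other neutral amino acids, CAT2 (Slc7a2) carries arginine and lysine, and PAT1 (Slc36a1) moves small amino acids together with protons and is found on lysosomes as well as at the surface. Leucine and arginine that enter by these routes are sensed by proteins that signal to the mTORC1 kinase complex at the lysosome. This complex promotes protein synthesis.

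The 75th percentile signal was 209 to 300 arbitrary units on the young arrays and 270 to 310 on the aged arrays, and 48.7% to 53.8% of the probes were well above background. The array of aged mouse 1 had the highest share of such probes and the highest net signal at the negative controls (61.3, against 51.9 to 55.1 on the other 5 arrays). All 13 genes that define skeletal muscle, such as Ckm and Acta1, were detected, and their summed signal was 8024 to 9622 times the 75th percentile in young and 6706 to 8608 times in aged mice. Among markers of other cell types, 6 of 9 erythroid genes were lower in aged muscle at an unadjusted p under 0.05 in limma, where 8.36% of all genes were lower and 6.07% higher (summed level 659 to 953 in young, 314 to 479 in aged mice), as were 3 of 12 endothelial genes (133 to 162 against 91.1 to 118) and 3 of 9 fibroblast genes (470 to 538 against 229 to 361). The macrophage markers went the other way in 6 of 12 genes (45.3 to 52.8 against 52.4 to 55.2). Of these 6, Fcgr1 was detected in 0 young and 3 aged mice. It was tested through its aged arrays alone, so a difference was built into its being tested. Of the Schwann cell markers, 1 of 11 was higher and 6 were lower at that limit (summed level 26.9 to 46.7 in young, 26.4 to 43.4 in aged mice). Prx, the periaxin of myelinating Schwann cells, fell by 1.29 on the log2 scale (adjusted p = 0.0428 in limma). The myelin gene Mbp, the 1 that was higher, rose by 1.33 (adjusted p = 0.0527 in limma). Of the lymphocyte markers 1 of 4 was higher at that limit, and of the adipocyte markers 0 of 8 differed. Several of the transporters are also made by these cells, and the part of such cells in the values below was not tested. In whole muscle RNA, fewer cells of a type and less RNA per cell cannot be told apart.

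No transporter passed the test. At an adjusted p under 0.05 (limma, Benjamini-Hochberg over all genes), 0 of the 9 were called, against 53 of 20900 genes (0.254%, 41 higher and 12 lower in aged mice). At an unadjusted p under 0.05, 1 of the 9 qualified, Slc36a1, where 14.4% of all genes did. The young and aged values did not overlap in 1 transporter that was higher in every aged mouse, Slc36a1 (7.92% of all genes), and in 1 that was lower in every aged mouse, Slc1a5 (13.9% of all genes). In the other 7 the groups overlapped. A count of 1 in 9 (11.1%) is near the share over all genes in each case and is no result about the transporters. The median log2 fold change of the 9 was -0.02, beside -0.06 over all genes tested. All 9 representative probes were well above background on all 6 arrays, so none of the comparisons rested on an undetected signal.

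**Figure D1:**
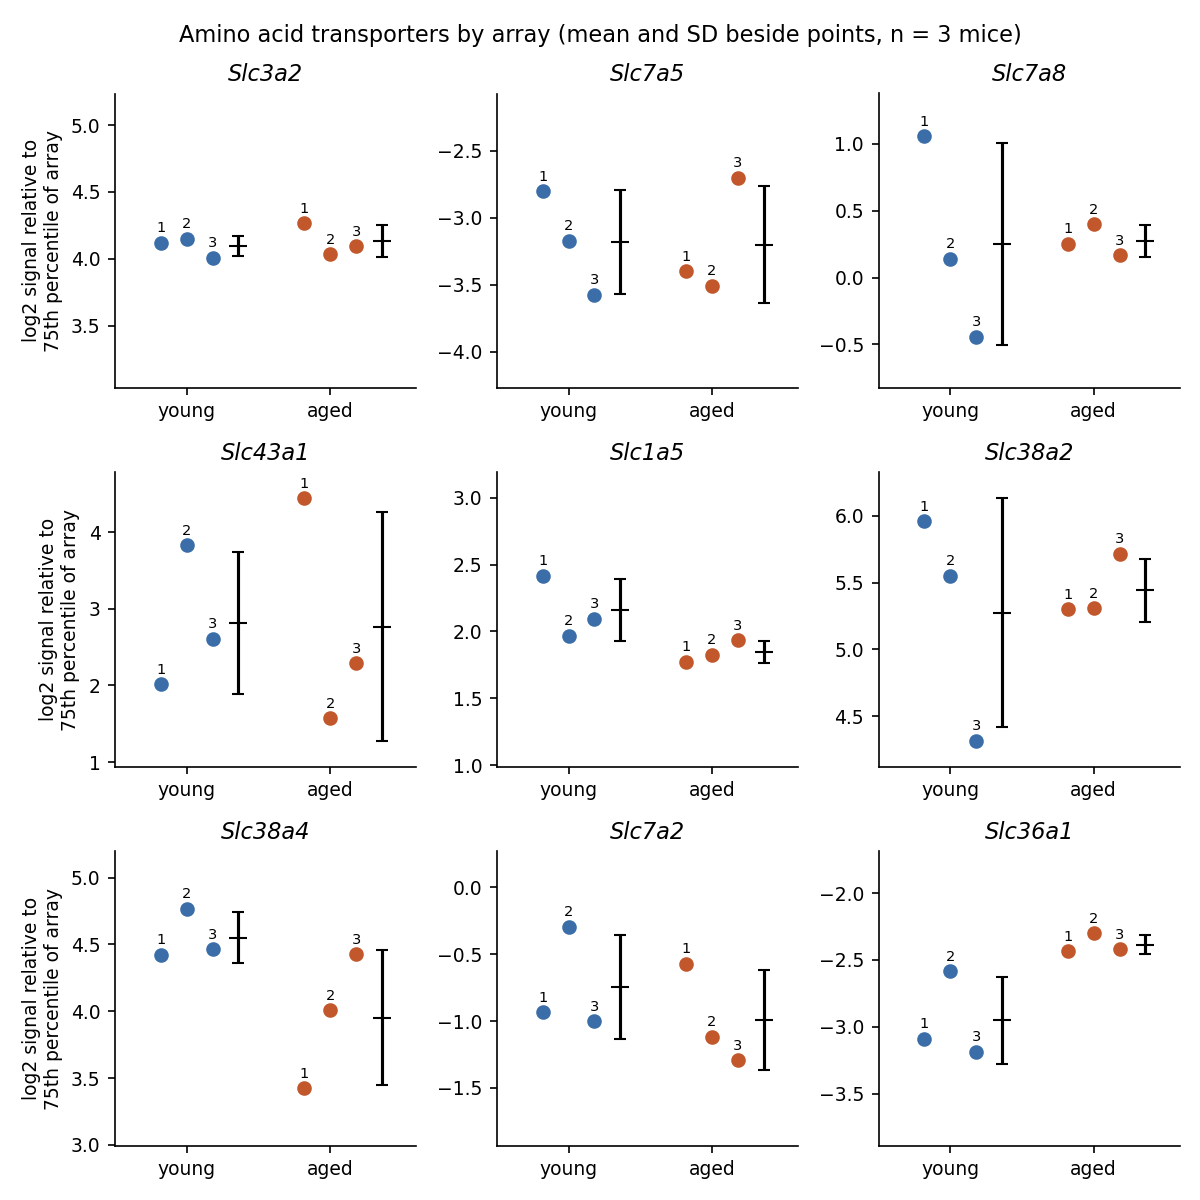
Log2 signal relative to the 75th percentile of the array (vertical axis, its range set separately for each gene) for the 9 transporters in 3 young and 3 aged mice; numbered points are mice, and the bar beside them is the mean with its SD. Slc3a2 lies between 4.01 and 4.27 in all 6 mice, Slc43a1 spans 1.57 to 4.44, and Slc1a5 and Slc36a1 are the genes whose groups do not overlap.

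The promoters of Slc36a1 and Slc43a1 are shown because these genes gave the smallest p-value and the widest spread between mice, and because each window holds CACGTG, the E-box letters that TFEB and related lysosomal and nutrient-responsive factors, among many other basic helix-loop-helix proteins, can bind. RefSeq windows of 250 bases before to 50 bases after the start were at hand for 6 of the 9 genes, in 8 windows (GRCm38.p6). The Slc36a1 window lies at chr11:55204090-55204389 and the Slc43a1 window at chr2:84840073-84840372, both on the + strand, written 5′ to 3′ with the E-box letters in capitals.
Slc36a1: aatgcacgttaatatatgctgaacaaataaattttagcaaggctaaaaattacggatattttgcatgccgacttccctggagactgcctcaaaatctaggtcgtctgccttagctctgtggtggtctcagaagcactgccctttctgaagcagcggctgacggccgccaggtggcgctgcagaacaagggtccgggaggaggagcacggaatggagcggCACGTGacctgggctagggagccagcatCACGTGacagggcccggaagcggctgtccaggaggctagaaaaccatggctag
Slc43a1: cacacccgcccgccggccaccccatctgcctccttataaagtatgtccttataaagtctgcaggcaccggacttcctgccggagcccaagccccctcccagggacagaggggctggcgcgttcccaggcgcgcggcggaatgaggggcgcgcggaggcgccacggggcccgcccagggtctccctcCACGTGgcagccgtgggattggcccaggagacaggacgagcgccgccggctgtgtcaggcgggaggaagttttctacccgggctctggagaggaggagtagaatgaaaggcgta
In Slc36a1 the letters occur 2 times, beginning 31 and 3 bases before the start, and in Slc43a1 once, beginning 64 bases before it. CACGTG reads the same on both strands and occurs in 7.15% of the 32851 windows of the same length. The letters TGATGNAA, searched on both strands as a form of the amino acid response element, occur in none of the 8 windows of these genes and in 3.97% of all windows. A site outside the windows would be missed, so this does not show that these genes lack the element. These matches describe the letters in the windows, and binding was not measured.

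The heavy chain Slc3a2 was the steadiest of the 9 genes. Its log2 level was 4.12, 4.15 and 4.01 in the young mice and 4.27, 4.03 and 4.10 in the aged mice. Every mouse lay within a narrow band, with the highest value in an aged mouse and the lowest in a young one. The means were 4.09 ± 0.08 and 4.13 ± 0.12 (SD, n = 3 each), a log2 fold change of 0.04 (95% confidence interval -0.32 to 0.40, limma adjusted p = 0.921). Its SD within groups, 0.0999, was at percentile 4.67 of all genes tested, meaning that few genes on the array varied less between mice of one age. On the fold scale the interval ran from 0.799-fold to 1.32-fold.

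The light chains that pair with it had estimates near 0 on their representative probes, with more spread between mice. Slc7a5, which encodes LAT1, gave log2 levels of -2.80, -3.17 and -3.57 in young and -3.40, -3.51 and -2.70 in aged mice. The groups overlapped fully, and the highest value belonged to an aged mouse and the lowest to a young one. The log2 fold change was -0.02 (SE 0.29, interval -0.72 to 0.68, limma adjusted p = 0.979). A second Slc7a5 probe, described below, gave -1.41. Slc7a5 signals lay well under the 75th percentile of the arrays, in the dim range where background weighs most. Slc7a8, which encodes LAT2, read 1.06, 0.14 and -0.44 in young and 0.25, 0.40 and 0.17 in aged mice. All 3 aged mice sat inside the range of the young ones, whose SD was 0.75 against 0.12. The Slc7a8 probe was printed in 10 spots per array, and the 7 or 8 spots left after outlier removal had an SD of 0.0642 to 0.129 on the log2 scale, which measures technical error alone. Its log2 fold change was 0.02 (interval -0.85 to 0.89, limma adjusted p = 0.982).

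Slc43a1, which encodes LAT3, had the widest spread of the 9. Its log2 level was 2.02, 3.83 and 2.61 in young and 4.44, 1.57 and 2.29 in aged mice. The highest and the lowest mouse were both aged, 2.87 log2 units apart, and young mouse 2 was the second highest. The means, 2.82 ± 0.92 and 2.77 ± 1.49 (SD, n = 3 each), differed by -0.05 with an interval of -1.92 to 1.82 (limma adjusted p = 0.981), or 0.263-fold to 3.54-fold. The SD within groups, 1.24, was at percentile 98.7 of all genes.

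Among the carriers of small neutral amino acids and glutamine, Slc1a5 and Slc38a4 had lower means in aged mice, without passing the test, and the estimate for Slc38a2 was small beside its interval. Slc1a5, which encodes ASCT2, read 2.42, 1.97 and 2.10 in young and 1.77, 1.83 and 1.94 in aged mice. Every aged mouse lay under every young mouse, with the nearest pair, aged mouse 3 and young mouse 2, almost level. The log2 fold change was -0.31 (interval -0.73 to 0.11), or 0.804-fold, with an unadjusted p of 0.119 and an adjusted p of 0.457 in limma. A dimmer Slc1a5 probe had a mean difference of the same sign, -0.35 (adjusted p over probes = 0.549 in limma), but its groups overlapped.

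Slc38a4, which encodes SNAT4 and is expressed from the paternal allele in many mouse tissues, had the lowest estimate of the 9. Its log2 level was 4.42, 4.77 and 4.46 in young and 3.42, 4.01 and 4.42 in aged mice. The young mice were close together, aged mice 1 and 2 lay under all of them, and aged mouse 3 was level with young mouse 1. The log2 fold change was -0.60 (SE 0.28, interval -1.25 to 0.05), or 0.660-fold, with an unadjusted p of 0.0667 and an adjusted p of 0.382 in limma. Slc38a2, which encodes SNAT2, a carrier induced when amino acids run short, read 5.96, 5.55 and 4.32 in young and 5.30, 5.31 and 5.72 in aged mice. Young mouse 3 stood under the other 5 mice, and the aged mice lay inside the young range. The log2 fold change was 0.17 (interval -0.82 to 1.16, limma adjusted p = 0.872), and without young mouse 3 it was -0.31.

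The cationic carrier Slc7a2 read -0.93, -0.30 and -1.0 in young and -0.57, -1.12 and -1.29 in aged mice. Young mouse 2 and aged mouse 1 were the highest of their groups, as they were for Slc43a1. The groups overlapped, and the log2 fold change was -0.25 (interval -0.91 to 0.41, limma adjusted p = 0.700).

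Slc36a1, which encodes PAT1, had the smallest unadjusted p of the 9, and its 2 probes disagreed. The probe with the higher mean over all 6 arrays, taken by rule to represent the gene, read -3.09, -2.58 and -3.19 in young and -2.44, -2.30 and -2.42 in aged mice. Every aged mouse lay above every young one, the nearest being young mouse 2. The log2 fold change was 0.57 (SE 0.20, interval 0.09 to 1.05), or 1.48-fold higher, with an unadjusted p of 0.0272 and an adjusted p of 0.291 in limma. The other probe, assigned to the same RefSeq transcript, read -1.59, -2.24 and -2.63 in young and -2.88, -3.38 and -3.93 in aged mice, with every aged mouse under every young one. This second probe gave a log2 fold change of -1.24 (interval -2.10 to -0.39), with an unadjusted p of 0.0108 and an adjusted p over probes of 0.236 in limma. It was well above background in all 3 young mice but in 1 of the 3 aged mice. The other probe was the brighter of the pair in each young mouse, so that the aged values decided which probe stood for the gene and with it the sign. The direction for Slc36a1 is thus not settled by these arrays, and the mean of both probes gave -0.34.

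Slc7a5 and Slc1a5 also had 2 probes each. The second Slc7a5 probe read -2.57, -3.30 and -1.64 in young and -3.25, -3.72 and -4.75 in aged mice, and was well above background in 3 young mice and in aged mouse 1. Its log2 fold change was -1.41 (SE 0.52, unadjusted p = 0.0312, adjusted p over probes = 0.321 in limma), whereas the representative probe gave -0.02 and the mean of both -0.71. The groups overlapped on the second probe as well. The probes were close in mean level over all 6 arrays, so the choice between them was narrow. The second probe had the higher mean in young mice (-2.50 against -3.18) and the lower mean in aged mice (-3.91 against -3.20). Its aged values thus decided which probe stood for the gene, and the size of a change in Slc7a5 is not settled by these arrays. The other 6 transporters had 1 probe each by RefSeq accession. A second reading was not at hand for them, as probes were not searched by gene name.

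**Figure D2:**
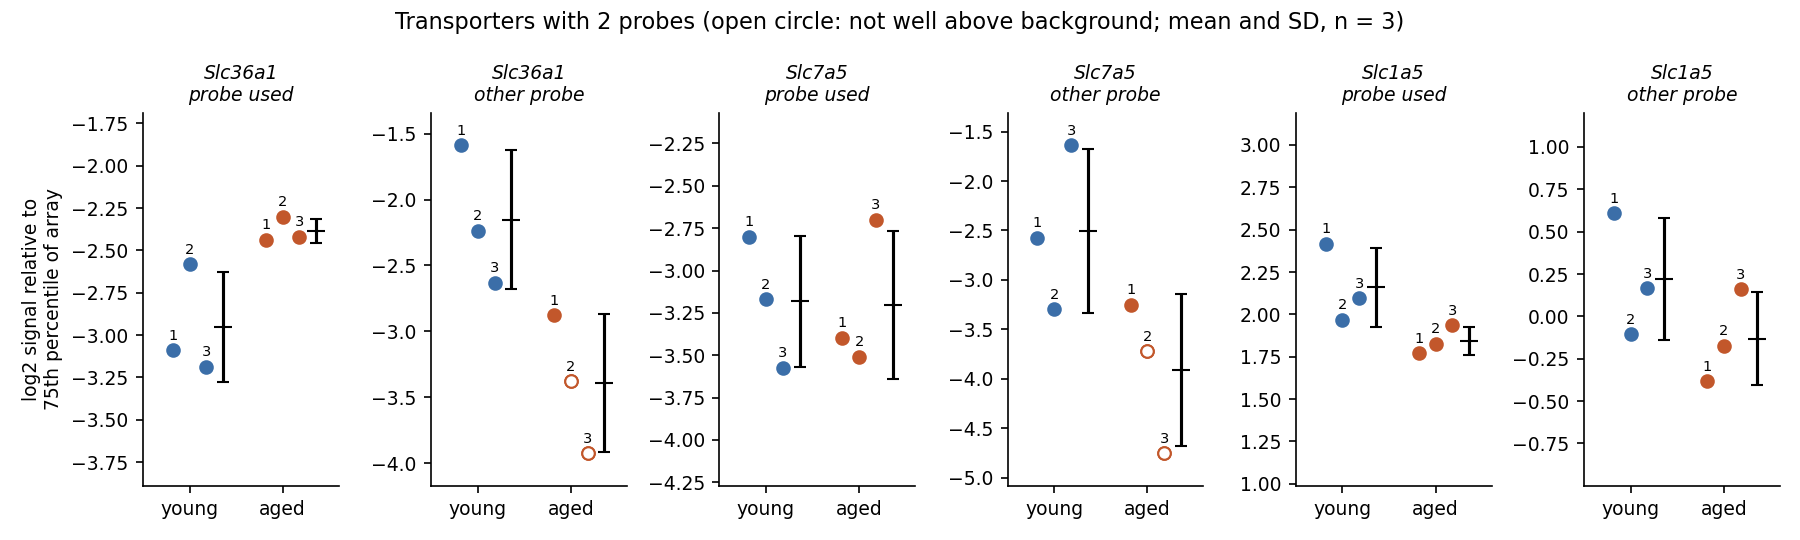
Log2 signal relative to the 75th percentile of the array (vertical axis, range set per panel) for both probes of Slc36a1, Slc7a5 and Slc1a5 in 3 young and 3 aged mice; open circles were not well above background, and bars are the mean with SD. The Slc36a1 probes have log2 fold changes of 0.57 and -1.24, those of Slc7a5 -0.02 and -1.41, and those of Slc1a5 -0.31 and -0.35.

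In size, 4 of the 9 estimates on the representative probes (Slc3a2, Slc7a5, Slc7a8 and Slc43a1) were under 0.1 in either direction on the log2 scale. The share of all genes under that limit was not counted, and Slc7a5 gave -1.41 on its other probe. Of the 9 intervals, 8 held 0. The narrowest interval was that of Slc3a2 and the widest that of Slc43a1. With 3 mice a group, a p that misses the threshold does not show that levels were alike. Across the 36 pairs of transporters, Pearson's r between representative probes over the 6 mice ran from -0.83 to 0.83, with 21 pairs above 0. On these probes and in these mice, the 9 genes thus did not rise and fall as one set. The share of pairs above 0 among other genes was not counted.

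Among the other amino acid transporters of the SLC1, SLC3, SLC6, SLC7, SLC16, SLC36, SLC38 and SLC43 families and the lysosomal carriers, 27 of 46 on the array were tested, and the remaining 19, among them Slc7a11 and Slc38a5, were too dim. None of the 27 passed the test, 1 was higher and 2 were lower at an unadjusted p under 0.05 (11.1%, beside 14.4% of all genes), and their median log2 fold change was -0.04. Slc36a2 (PAT2), a close relative of Slc36a1, read -1.63, -1.39 and -1.43 in young and -1.81, -2.31 and -2.49 in aged mice. Its log2 fold change was -0.72 (unadjusted p = 0.0130, adjusted p = 0.232 in limma). Slc6a20a, a carrier of proline and other imino acids, was well above background in all 3 young mice and in 0 aged mice. Its mean was at least 2.23-fold lower in the aged mice. The fitted log2 fold change was -1.23 (interval -1.70 to -0.77, adjusted p = 0.0813 in limma). Slc6a20a entered the test through the young arrays alone, since the filter asked for detection on 3 arrays, and a difference was therefore built into its being tested. The bound compares the young mean with the weakest signal that still counted as well above background on each aged array, or the probe's own signal where higher. It leaves out the spread between mice. Slc6a17, a vesicular carrier of neurons, had a log2 fold change of 1.91 (adjusted p = 0.246 in limma) and was detected in 1 young and 3 aged mice, so that this value rests in part on signal not well above background. Of the other light chains of 4F2hc that were tested, Slc7a6 gave a log2 fold change of -0.04, Slc7a7 0.00 and Slc7a10 -0.53 (interval -1.55 to 0.50), and the lysosomal arginine sensor Slc38a9 gave 0.16.

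**Figure D3:**
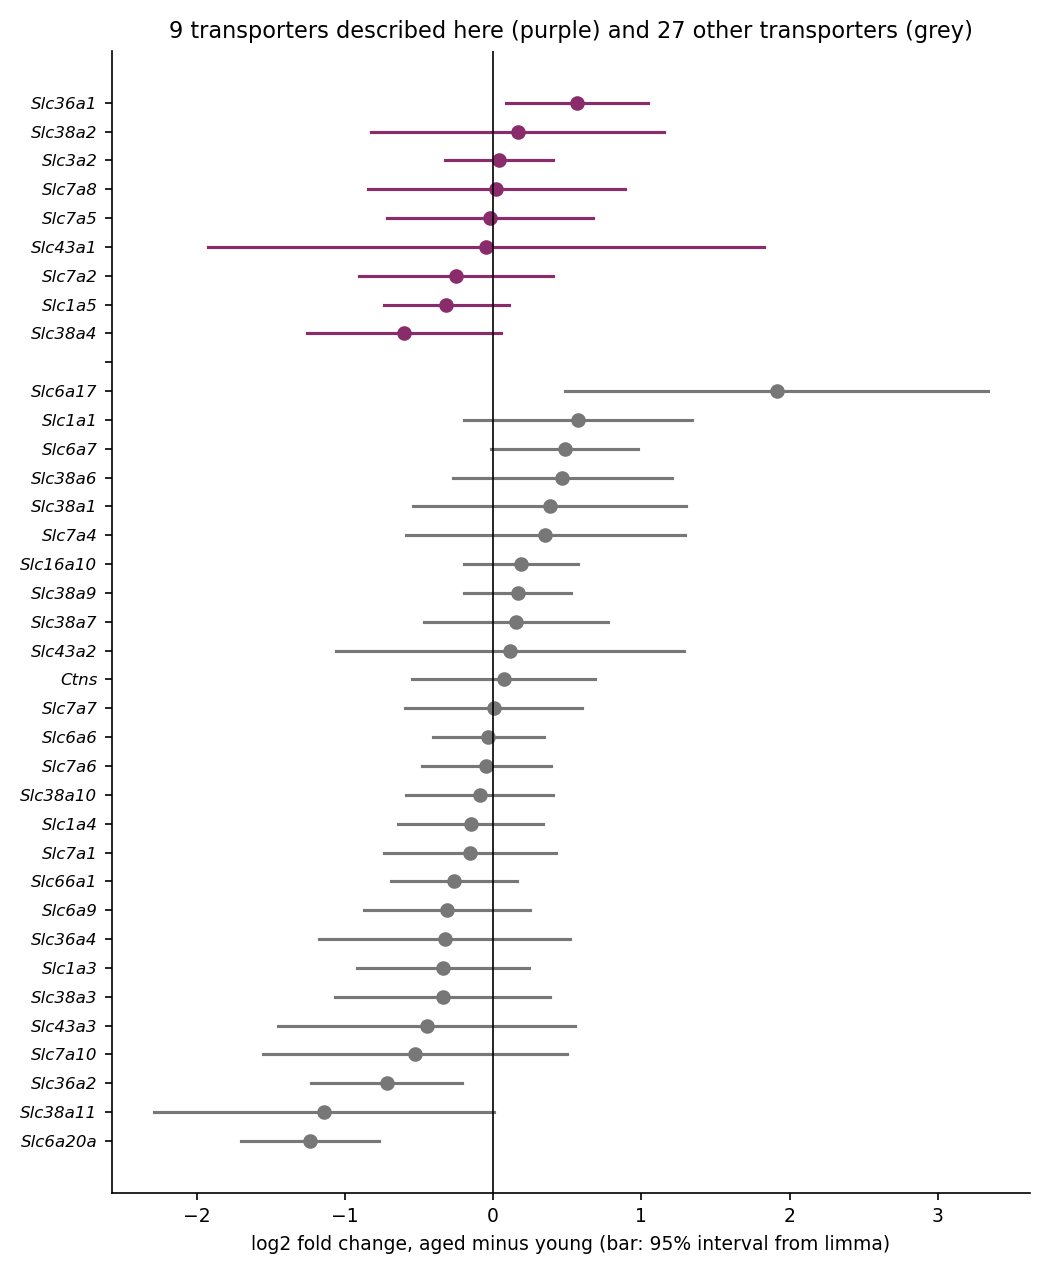
Log2 fold change, aged minus young (horizontal axis), with the 95% confidence interval from limma for the 9 transporters described here (purple) and 27 other amino acid transporters (grey), n = 3 mice a group. The interval of Slc36a1 is the one among the 9 that excludes 0; for Slc6a20a, not well above background in any aged mouse, the point is the fitted value and not the bound.

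Lists of genes of amino acid sensing, deprivation and metabolism, and a list for denervated muscle, were read in the same way. In these lists 0 genes passed the test. Of 30 tested genes of amino acid sensing at mTORC1, 1 was higher and 2 were lower at an unadjusted p under 0.05, with a median log2 fold change of -0.00. They were Seh1l (0.60, adjusted p = 0.288), a GATOR2 subunit, Lamtor4 (-0.43, adjusted p = 0.305), a subunit of the Ragulator anchor on the lysosome, and Castor1 (-1.72, adjusted p = 0.301), the cytosolic arginine sensor, all in limma. Castor1 was detected in 3 young mice and 1 aged mouse, and its value rests in part on signal not well above background. Of 20 genes of the amino acid deprivation response, 1 was lower, the transcription factor Atf5 (-0.40, adjusted p = 0.333 in limma), and the median was -0.24. Of 22 genes of branched-chain amino acid breakdown, 1 was lower, the cytosolic aminotransferase Bcat1, and the median was -0.12. Bcat1 was detected in 3 young and 0 aged mice. Its mean was at least 1.42-fold lower by the same kind of bound, and its fitted value had an adjusted p of 0.213 in limma. Like Slc6a20a, Bcat1 was tested through its young arrays alone. Of 13 genes of glutamine, alanine and arginine metabolism, 1 was higher and 2 were lower, among them Asl, which releases arginine from argininosuccinate (1.03, adjusted p = 0.212), and Nos2, which makes nitric oxide from arginine (-1.19, adjusted p = 0.151), both in limma. Of 15 genes known to rise in denervated muscle, 11 were higher at that limit, where 6.07% of all genes were, and their median was 1.20. No test of a difference between lists was made. Runx1 gave 2.75 and Gadd45a 2.59 (adjusted p = 0.0673 for both in limma), and Ankrd1 gave 3.42 (adjusted p = 0.139 in limma). Chrng, the fetal acetylcholine receptor subunit, is among the 11 and was detected in 0 young and 3 aged mice. It was tested through its aged arrays alone, so a difference was built into its being tested.

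The genes most like Slc36a1 over the 6 mice, among 12682 genes with a symbol and a detected signal on all arrays, were Wdr6 (Pearson's r = 0.996), Ppfibp2 (0.979) and Cyp1b1 (0.978). These coefficients are the highest of many over 6 arrays and are given as a description of the representative Slc36a1 probe. Their log2 fold changes, 0.65, 0.46 and 1.27, share the sign of that probe because they were picked for following it.

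The spread of Slc43a1 between mice was looked at further, with genes chosen after its values were seen. Its relative Slc43a2 (LAT4) read 1.17, 1.70 and 0.99 in young and 2.55, 0.70 and 0.94 in aged mice, so that aged mouse 1 and young mouse 2 were again the highest and aged mouse 2 the lowest. Fbxo32, the ubiquitin ligase atrogin-1 that rises in fasting and wasting muscle, read 4.63, 5.48 and 3.89 in young and 6.65, 3.95 and 4.16 in aged mice. Klf15, a glucocorticoid-induced regulator of amino acid breakdown, read 2.0, 2.52 and 1.22 in young and 3.09, 0.92 and 0.43 in aged mice. In both genes the same pair of mice, 1 of each age, stood highest. Fbxo32 and Klf15 had the highest r with Slc43a1 in the gene list below, so this likeness follows from their choice. Pearson's r with Slc43a1 over the 6 arrays was 0.937 for Slc43a2, 0.899 for Fbxo32 and 0.815 for Klf15, and 0.971% of all genes had an r at least that of Fbxo32. Among 18 genes of the fasting and glucocorticoid response, r ran from -0.32 (Ucp3) to 0.899, 16 were above 0 and the median was 0.457, beside a median of -0.05 and 47.1% above 0 over all genes. The highest r with Slc43a1 belonged to Inpp4b (0.987), Sco2 (0.986) and Cerk (0.982). Aged mouse 1, the highest for Slc43a1, was also the array with the highest negative control signal named above, and the part of array quality or of the time since the last meal in this pattern was not tested.

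**Figure D4:**
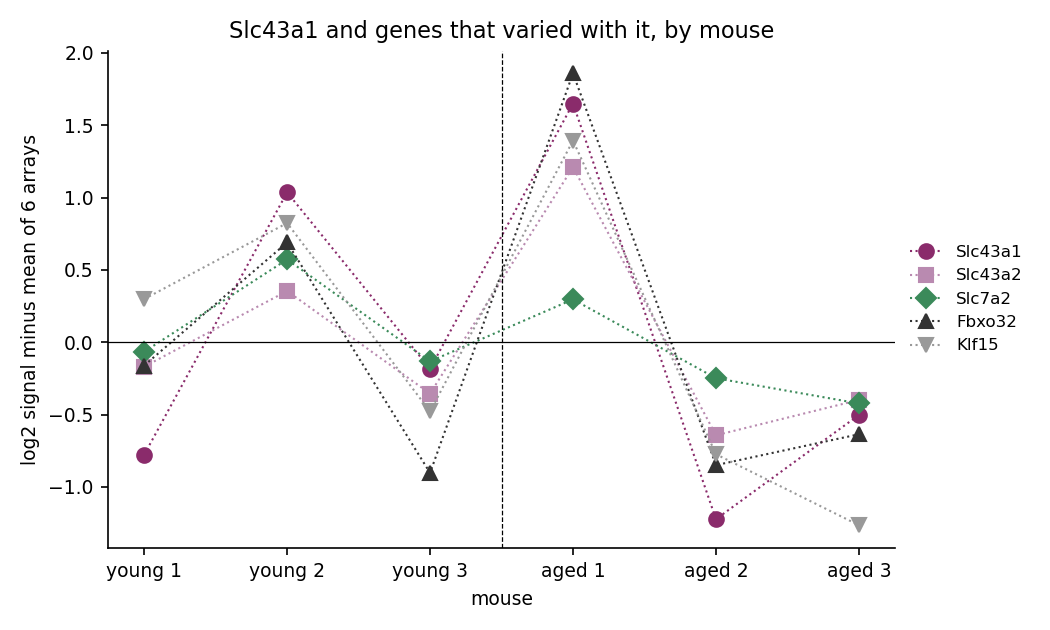
Log2 signal minus the mean of the 6 arrays (vertical axis) in each mouse (horizontal axis, young left of the dashed line) for Slc43a1, Slc43a2, Slc7a2, Fbxo32 and Klf15; dotted lines only join the points of a gene. Young mouse 2 and aged mouse 1 are above the mean in all 5 genes, and young mouse 3, aged mouse 2 and aged mouse 3 are under it in all 5. The genes were chosen after the Slc43a1 values were seen and for a high r with it, so this likeness follows from the choice.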

How the data were processed

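Total RNA of gastrocnemius from 3 young and 3 aged mice was hybridized to 1-colour Agilent arrays with 62976 spots (array design annotated on mm9), 1 array per mouse, on 1 slide read in 1 scan. The deposited values are spot intensity from Agilent Feature Extraction (version 11.0.1.1 per the file headers, 9.5 in the submitters' processing notes), already background-corrected by the authors' software and without normalization between arrays. Log2 of the processed signal was set relative to the 75th percentile of each array. The deposited value table held the same values. Outlier spots (161 to 212 per array) were left out, and spots of a probe were averaged. A probe was kept when well above background on at least 3 of 6 arrays (28002 probes), and the brightest kept probe represented its gene. Probes were given gene symbols by RefSeq accession alone, and 28331 carried a symbol and 27350 did not. The test was limma 3.58.1, run in R 4.3.3 (intercept and age, Benjamini-Hochberg over 20900 genes, threshold 0.05), and the procedure was tested on simulated data. No array has a read depth, so the number of mice limits the precision. Each array was labelled as a separate mouse.

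The transporters and gene lists were chosen with earlier results of these data known. Named were all 9 transporters, from the other lists any gene past the threshold and up to 4 genes of smallest unadjusted p under 0.05, and the 3 genes most correlated with the transporter of smallest p. Of the marker lists, only the genes that bear on the transporters are named, and 1 gene of the other lists that met the rule is not reported here. Alternatives covered background correction, scaling, the filter, the choice of probe, the slide row, the replicate number and each mouse left out.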

Additional observations from a re-analysis of the deposited data

How the results depend on the processing

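None of the 9 transporters passed the threshold under any of the 17 planned settings or on a dimmer probe, a setting chosen after seeing the data. The smallest adjusted p among these 156 values was 0.236. The sign held in all settings for Slc1a5 (-0.46 to -0.19) and Slc38a4 (-1.13 to -0.34). It turned in 19 values, 12 of them with 1 mouse left out. Slc36a1 gave -0.34 as the mean of its probes and -1.24 on the dimmer probe. Median scaling, which moved the median of all genes by -0.15, gave -0.11 for Slc3a2 and -0.13 for Slc7a8, and scaling over detected probes gave 0.013 for Slc7a5. With the slide row as a block, Slc43a1 gave 1.62 and Slc7a2 0.17. The first row held the 3 young mice and aged mouse 1 and the second row aged mice alone, so this fit compares aged mouse 1 with the young mice. With 1 mouse left out, values ran from -0.31 to 0.51 for Slc38a2 (negative without young mouse 3), -0.028 to 0.087 for Slc3a2, -0.89 to 0.55 for Slc43a1, -0.27 to 0.17 for Slc7a5 and -0.32 to 0.42 for Slc7a8. The cause was not tested.

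The number of genes past the threshold, 53 as reported, was 8 without a filter (36710 genes tested), 35 with detection required on all arrays (18551 tested) and 41 to 73 in the other settings that kept every mouse and had no replicate block. It was 1 to 199 with 1 mouse left out, 1 without aged mouse 3, 199 without aged mouse 1 and 8 to 9 without any of the others. With the replicate block it was 5. Deviations of same-numbered young and aged mice correlated at -0.06, -0.27 and 0.03, so the numbers were not taken to pair the mice. The precision is limited by 3 mice a group, and Slc7a5 and Slc36a1 also by weak signal.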
